A study of Mus musculus with 32 samples.

Results

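Tcstv1 and Tcstv3 are a pair of closely related mouse genes at the distal end of chromosome 13, and they were followed as 2 of 54532 genes in 32 libraries, each made from a single egg or a single 2-cell embryo. They were chosen by symbol because both were higher in embryos labelled Trp53 MZ-KO than in WT embryos, while most other genes induced by the transcription factor Dux were lower. The genotype difference in embryos is therefore a description here and carries no test. The protein of Trp53 is p53, which controls transcription when DNA is damaged or cells are under stress. The WT libraries came from 3 unfertilised eggs, 8 early and 6 late 2-cell embryos. Those of the knockout came from 3 eggs labelled Trp53 KO and from 6 early and 6 late embryos, at the same stage, labelled Trp53 MZ-KO. MZ-KO embryos had a knockout mother and a knockout father, and the knockout allele lacks exons 2 to 10 after recombination by Ddx4::Cre, which is active in germ cells. The WT controls were Trp53 flox/flox animals that kept these exons, and all mice were on a mixed background that the labels give as Bl6/C57. Early embryos were taken 28 to 32 hours and late embryos 48 hours after the ovulation hormone hCG. How many females or litters gave each group is not stated, so p-values measure the spread between single eggs or embryos.

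Tcstv1 and Tcstv3 are named for a 2-cell-stage variable group of genes. Their RNA appears around the time when the mouse embryo first transcribes its own genome, and again in the rare 2-cell-like cells of embryonic stem cell cultures. In stem cells both have been tied to telomere lengthening. Dux is transcribed briefly in the early 2-cell embryo and switches on many genes of this stage, such as the Zscan4, Usp17l and Tdpoz families.

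Tcstv1 (ENSMUSG00000096284) lies at chr13:119893388-119894785 on the minus strand of mm10 and Tcstv3 (ENSMUSG00000095821) at chr13:120316878-120318178 on the plus strand, 422 kb apart with 21 annotated genes between them. Each has a transcript of 1 exon and a transcript of 2 exons, with a coding sequence of 516 bases in Tcstv1 and 510 in Tcstv3. Over the longer coding sequence they were 93.6% identical. A neighbour, Gm21818 (chr13:120172433-120173888, plus strand), was closer to Tcstv1 at 96.3%. Gm21761 and AF067061 reached 95.5% and 95.3% identity with Tcstv1. The stretch of 120 coding bases in which Tcstv1 and Tcstv3 differ most runs from coding base 338 to 457 in each gene, and it is shown because it is where reads can separate the copies best. Capitals mark the 14 bases at which the 3 genes are not all the same, read 5′ to 3′ from the annotated transcripts (GENCODE release M21).
Tcstv1: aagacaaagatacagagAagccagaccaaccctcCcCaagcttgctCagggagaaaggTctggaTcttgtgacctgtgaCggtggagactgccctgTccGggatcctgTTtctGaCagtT
Tcstv3: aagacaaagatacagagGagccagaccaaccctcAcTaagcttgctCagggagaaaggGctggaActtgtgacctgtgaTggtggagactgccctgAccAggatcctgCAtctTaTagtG
Gm21818: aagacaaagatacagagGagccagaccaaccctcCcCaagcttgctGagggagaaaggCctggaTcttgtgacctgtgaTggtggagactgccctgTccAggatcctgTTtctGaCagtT
In this stretch Tcstv3 differs from Tcstv1 at 13 bases and Gm21818 differs from Tcstv1 at 5. At the other extreme, the first 120 coding bases of Tcstv1 and Tcstv3 differ at 1 base, printed in capitals.
Tcstv1: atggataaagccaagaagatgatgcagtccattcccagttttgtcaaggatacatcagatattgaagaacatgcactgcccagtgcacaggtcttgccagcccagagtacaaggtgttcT
Tcstv3: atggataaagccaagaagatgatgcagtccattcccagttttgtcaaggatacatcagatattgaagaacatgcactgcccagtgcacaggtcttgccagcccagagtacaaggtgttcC
Of the 730 distinct 50-base words in the Tcstv3 transcripts, 31.4% also occur in a transcript of another gene, against 15.0% of 1397 words for Tcstv1. How the authors placed reads that match several copies is not given in the sources used here, so the split of reads between these genes is uncertain.

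The FPKM scale of the libraries rested on 7240000 to 27700000 reads, and 6088 to 9745 genes reached an FPKM of 1. FPKM relates reads to the span of the gene and to the depth of the library. The 2 genes have similar spans of 1398 and 1301 bases. Their annotated transcripts are 1280 and 875 bases long in Tcstv1 and 510 and 779 in Tcstv3. Levels of the 2 genes are therefore compared as FPKM only, which need not be their ratio in RNA molecules. Summed oocyte markers were at 3359 to 5143 FPKM in eggs, 1279 to 2095 in early embryos and 53.4 to 234 in late embryos. None of 12 cumulus and granulosa cell markers reached FPKM 1 in any library. Trp53 RNA was at 0.311 to 1.11 FPKM in the early MZ-KO embryos and at 2.60 to 9.29 in the WT early embryos, without overlap. In eggs (6.16 to 10.3 in WT, 6.33 to 9.81 in those labelled KO) and in late embryos (0.557 to 7.09 in WT, 1.48 to 5.39 in those labelled MZ-KO) the ranges overlapped, so Trp53 RNA goes against these labels and every direction drawn from those groups rests on the label alone.

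In eggs, Tcstv1 had the higher FPKM of the pair. Its FPKM was 24.3, 29.96 and 21.96 in the 3 WT eggs and 23.1, 19.7 and 11.5 in the eggs labelled KO. Tcstv3 was at 3.75, 3.15 and 1.45 in WT eggs and at 4.33, 2.62 and 5.33 in the others. The genotype ranges overlapped for both genes. All differences are of mean log2(FPKM + 1), which understates changes of low genes, and tests are limma over all genes with Benjamini-Hochberg adjustment. The KO egg minus WT egg difference was -0.51 for Tcstv1 (SE 0.28, 95% interval -1.17 to 0.15, adjusted p = 0.658) and 0.45 for Tcstv3 (SE 0.31, interval -0.28 to 1.17, adjusted p = 0.722). Neither passed the threshold of 0.05, and 0.333% of the 6607 genes tested did.

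Early WT embryos differed widely from one another in Tcstv1. The 8 embryos were at 19.96, 47.2, 2.29, 0.069, 0.864, 14.6, 17.5 and 17.5 FPKM in library order, and the lowest value rests on 2 reads against 890 in the highest. Libraries 3, 4 and 5 were below every WT egg by a wide margin, and 7 of the 8 embryos were below all 3 eggs. Tcstv3 in the same embryos was at 2.69, 8.83, 5.47, 1.33, 3.33, 8.09, 4.19 and 5.12 FPKM, a far narrower range. The coefficient of variation, the SD over the mean, was 1.026 for Tcstv1 and 0.528 for Tcstv3. The mean of Tcstv1 was 25.4 ± 4.12 FPKM in eggs (SD, n = 3) and 15.0 ± 15.4 in embryos (SD, n = 8). The log2 difference was -1.58 (SE 1.03, interval -3.82 to 0.67, limma adjusted p = 0.214). Tcstv3 was at 2.78 ± 1.19 FPKM in eggs (SD, n = 3) and at 4.88 ± 2.58 in embryos (SD, n = 8). Its difference was 0.56 (SE 0.40, interval -0.30 to 1.42, limma adjusted p = 0.250). Neither passed the threshold, in a comparison where 51.3% of 8619 genes did.

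By the late stage the order of the pair in FPKM was turned around in WT embryos. Tcstv1 was at 4.45, 0.775, 0.621, 4.41, 1.68 and 3.83 FPKM in the 6 WT late embryos. Tcstv3 was at 16.3, 3.75, 5.81, 18.5, 13.2 and 16.1 FPKM and exceeded Tcstv1 in all 6, by 3.66 to 9.36 times. Libraries 2 and 3 were the lowest for both genes. Tcstv3 rose from early to late by 1.13 (SE 0.37, interval 0.34 to 1.93, limma adjusted p = 0.0106), with 4 of 6 late embryos above every early one. The background here was 85.0% of 9319 genes called, 46.6% as higher, and the median gene differed by 0.26, or by -0.02 after median-ratio scaling. For Tcstv1 the difference was -1.45 (SE 0.77, interval -3.09 to 0.19, limma adjusted p = 0.0899), which missed the threshold. It passed without WT early library 4 (-1.88, limma adjusted p = 0.0156) or without library 5 (-1.77, limma adjusted p = 0.0367), and in a fit over all libraries (-1.45, adjusted p = 0.0245). Across all fits without 1 library the difference ran from -1.88 to -1.10 and the limma adjusted p from 0.0156 to 0.172. With the reads of both genes summed, the change was -0.13 (adjusted p = 0.840), so the total of the pair was not called. These WT libraries are also those against which the genes were chosen.

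The balance between the copies was tested directly as log2(Tcstv3 FPKM + 1) minus log2(Tcstv1 FPKM + 1) in each library, a test added after the data had been seen. Its mean was -2.85 ± 0.41 (SD, n = 3) in WT eggs, -0.71 ± 1.59 (SD, n = 8) in WT early and 1.87 ± 0.34 (SD, n = 6) in WT late embryos. From early to late it rose by 2.58 (exact two-sided permutation test over 3003 regroupings, p = 0.00333, adjusted p = 0.00666 over 2 comparisons), and on this scale all 6 late embryos were above all 8 early ones. That separation depends on the added 1. As a plain FPKM ratio, WT early library 4, with 2 reads of Tcstv1, was at 19.3, above the highest WT late embryo (9.36). WT early library 5 was at 3.86, above the lowest WT late embryo (3.66). From egg to early embryo it rose by 2.14 (exact permutation test over 165 regroupings, p = 0.0364, adjusted p = 0.0364), a call lost when most single libraries were left out. Tcstv3 exceeded Tcstv1 in 3 of 8 WT early embryos, libraries 3, 4 and 5, and in none of the 6 eggs.

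**Figure D1:**
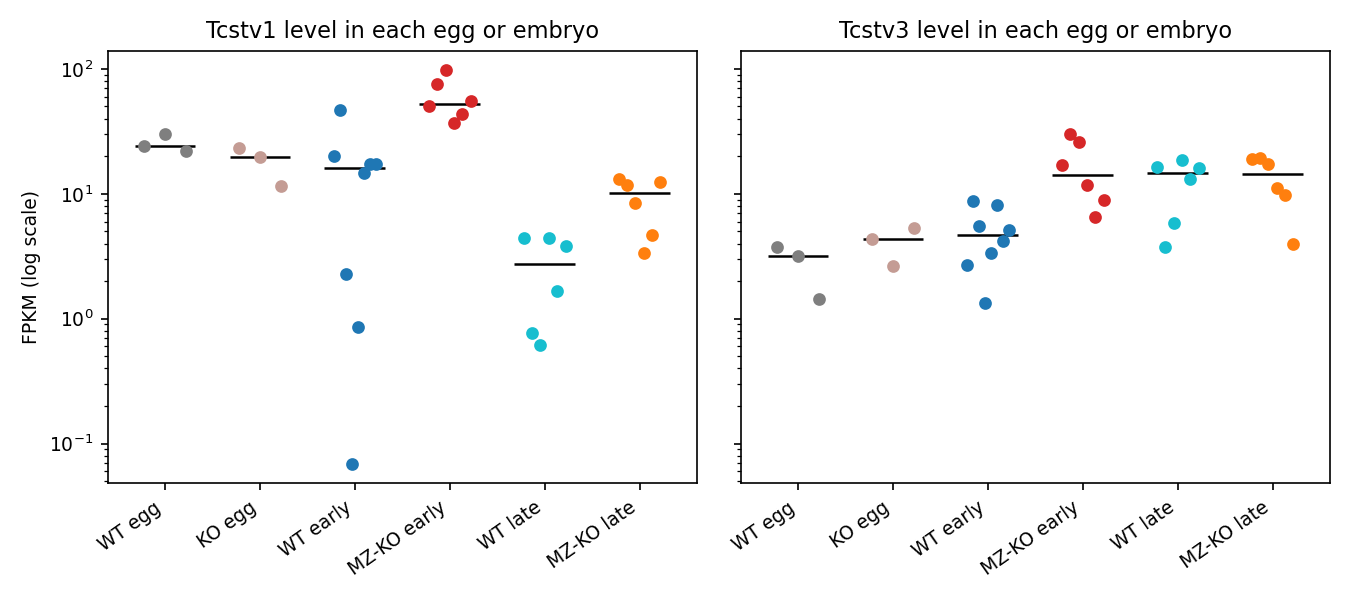
FPKM of Tcstv1 (left) and Tcstv3 (right) on a log axis in the 6 groups; each point is a library, in library order from left to right, and each line is the group median. Tcstv1 runs from 0.069 to 97.2 FPKM and drops between the early and the late stage in MZ-KO embryos, while Tcstv3 stays between 1.33 and 30.1.

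In embryos labelled MZ-KO, Tcstv1 reached its highest levels of the series. The 6 early embryos were at 50.4, 76.0, 97.2, 36.6, 43.8 and 55.0 FPKM, a mean of 59.8 ± 22.6 (SD, n = 6) against 15.0 ± 15.4 (SD, n = 8) in WT. Of these, 4 lay above every WT early embryo, and the range overlapped the WT range through WT library 2. The 5 WT early embryos other than libraries 3, 4 and 5 were between 14.6 and 47.2 FPKM. Tcstv3 was at 16.9, 30.1, 25.98, 11.7, 6.54 and 8.86 FPKM, a mean of 16.7 ± 9.56 (SD, n = 6) against 4.88 ± 2.58 (SD, n = 8), with 5 of 6 above every WT embryo. The log2 differences were 2.72 (SE 0.75) for Tcstv1 and 1.54 (SE 0.37) for Tcstv3. These values chose the genes and are given without a test. Of the 7675 genes in this comparison 3.28% were called, 2.58% as higher.

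In late embryos the genotype difference was seen in Tcstv1 and was small in Tcstv3, though the difference between the genes was not tested. Tcstv1 was at 13.2, 11.9, 8.44, 3.34, 4.69 and 12.4 FPKM in the MZ-KO group, 8.99 ± 4.20 (SD, n = 6) against 2.63 ± 1.81 (SD, n = 6) in WT. Its log2 difference was 1.50 (SE 0.40), and 5 of 6 embryos were above every WT late embryo. Tcstv3 was at 19.2, 19.4, 17.4, 11.1, 9.78 and 4.00 FPKM, 13.5 ± 6.19 (SD, n = 6) against 12.3 ± 6.09 (SD, n = 6). Its log2 difference was 0.15 (SE 0.43, interval -0.77 to 1.07), and the groups overlapped almost entirely. A log2 fold change in the authors' deposited table, turned here to MZ-KO over WT, is 1.60 (SE 0.54) for Tcstv1 and -0.05 (SE 0.46) for Tcstv3. The name of that column gives neither stage nor direction; both were inferred from its correlation over 9177 genes with WT minus knockout, which was 0.83 in late embryos, 0.18 in early embryos and 0.01 in eggs. In the limma comparison of late embryos 31.9% of 8772 genes were called, 18.5% as higher.

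Along the MZ-KO stages Tcstv1 differed by 1.65 (SE 0.32) between early embryos and KO eggs and by -2.66 (SE 0.33) between late and early embryos. For Tcstv3 these were 1.65 (SE 0.44) and -0.25 (SE 0.41). All 6 early embryos were above all 3 KO eggs for both genes, and all 6 late embryos were below all 6 early ones for Tcstv1. Over all genes 49.2% of 8305 were called between KO eggs and early MZ-KO embryos, and 81.7% of 8944 between the early and late MZ-KO stages. In FPKM, Tcstv3 exceeded Tcstv1 in 5 of 6 late MZ-KO embryos and in none of the 6 early ones. Late library 6 was the exception, where the FPKM of Tcstv3 was 0.322 times that of Tcstv1. Ordered by median, Tcstv1 went from WT late (2.76) through MZ-KO late (10.1), WT early (16.05), KO egg (19.7) and WT egg (24.3) to MZ-KO early (52.7). All neighbours in that order overlapped except the last pair, where the highest WT egg was at 29.96 and the lowest MZ-KO early embryo at 36.6. Tcstv3 went from WT egg (3.15) through KO egg (4.33), WT early (4.65), MZ-KO early (14.3) and MZ-KO late (14.3) to WT late (14.7), and every neighbouring pair overlapped.

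**Figure D2:**
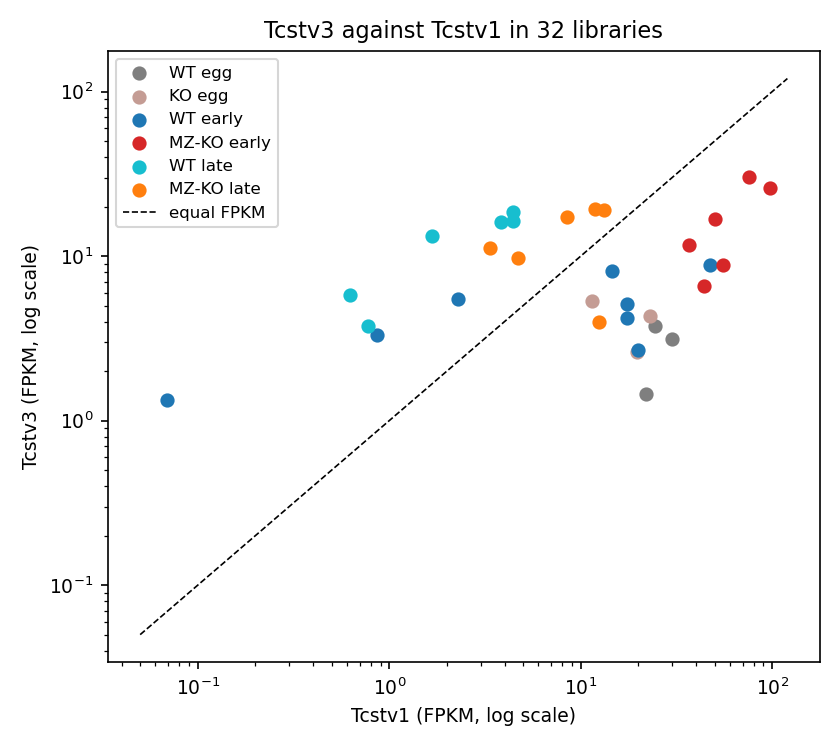
Tcstv3 against Tcstv1 in each library, both in FPKM on log axes, coloured by group; the dashed line marks equal FPKM. All 6 WT late embryos and 5 of 6 MZ-KO late embryos lie above the line, all 6 eggs and all 6 MZ-KO early embryos lie below it, and WT early embryos lie on both sides (3 above, 5 below).

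Within a group, embryos with more Tcstv1 had more Tcstv3 in WT late embryos, where Pearson's r was 0.92 (exact permutation p = 0.0111, adjusted p = 0.0444 over 4 groups, n = 6). Spearman's rho there was 0.89 (exact permutation p = 0.0333, adjusted p = 0.133), and r was 0.92 again without the 2 embryos farthest from the median of Tcstv1. In WT early embryos r was 0.66 (exact permutation p = 0.0777, adjusted p = 0.106, n = 8; rho 0.43, p = 0.299) and 0.17 without 2. In MZ-KO early embryos it was 0.77 (exact permutation p = 0.0792, adjusted p = 0.106, n = 6; rho 0.66, p = 0.175) and 0.06 without 2. The WT early relation thus rests on those 2 embryos, and after median-ratio scaling its r without them was 0.13. For MZ-KO early embryos the leave-out depended on scaling, since r was 0.79 after median-ratio scaling and 0.90 without the 2 embryos then farthest from the median. In MZ-KO late embryos it was 0.10 (exact permutation p = 0.890, adjusted p = 0.890, n = 6; rho 0.26, p = 0.658) and -0.25 without 2. The copies share reads and each embryo's library, which both bear on r.

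The near relatives of the pair did not all take the same direction in MZ-KO embryos. Gm21818, the copy closest to Tcstv1, was at 1.87, 2.83, 0.838, 0.033, 0.339, 2.92, 2.12 and 2.38 FPKM in WT early embryos. In MZ-KO early embryos it was at 20.4, 19.2, 14.3, 6.13, 2.50 and 4.89. It was lowest in the same WT libraries, 3, 4 and 5, as Tcstv1. In late embryos Gm21818 averaged 2.57 ± 1.57 FPKM (SD, n = 6) among WT libraries. Among MZ-KO libraries it averaged 14.6 ± 10.6 (SD, n = 6), without overlap. Over the 8772 genes of that comparison, the groups did not overlap in 8.21% with MZ-KO higher and in 5.48% with MZ-KO lower. B020031M17Rik, 88.5% identical to Tcstv1, was at 0.640 ± 0.390 (SD, n = 6) in WT late and 8.33 ± 3.82 (SD, n = 6) in MZ-KO late embryos, again without overlap. The more distant relatives Gm21762, Gm21731 and D13Ertd608e were also higher in all 6 MZ-KO late embryos than in any WT late embryo, by log2 differences of 1.34, 0.98 and 0.95.

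Other copies had lower means in MZ-KO late than in WT late embryos. BC147527, 86.8% identical to Tcstv1, was at 9.70 ± 3.96 FPKM (SD, n = 6) in WT late and 1.44 ± 0.977 (SD, n = 6) in MZ-KO late embryos, and Gm21761 at 3.43 ± 1.91 (SD, n = 6) and 0.794 ± 0.296 (SD, n = 6), both without overlap. AF067061 was at 10.2 ± 6.59 (SD, n = 6) and 2.77 ± 3.08 (SD, n = 6), with 4 of 6 MZ-KO embryos below every WT embryo. AF067063, the relative with the highest FPKM and 77.5% identical to Tcstv1, was at 62.4 ± 18.4 (SD, n = 6) in the WT group. In the MZ-KO group it was at 54.3 ± 15.8 (SD, n = 6), and the groups overlapped. Gene spans ran from 1355 bases in Gm21762 to 17178 in Gm21761, so FPKM does not rank the relatives by abundance. So Gm21761 and AF067061, which share over 95% of coding bases with Tcstv1, had lower means in MZ-KO late than in WT late embryos, where Tcstv1 and Gm21818 had higher ones.

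**Figure D3:**
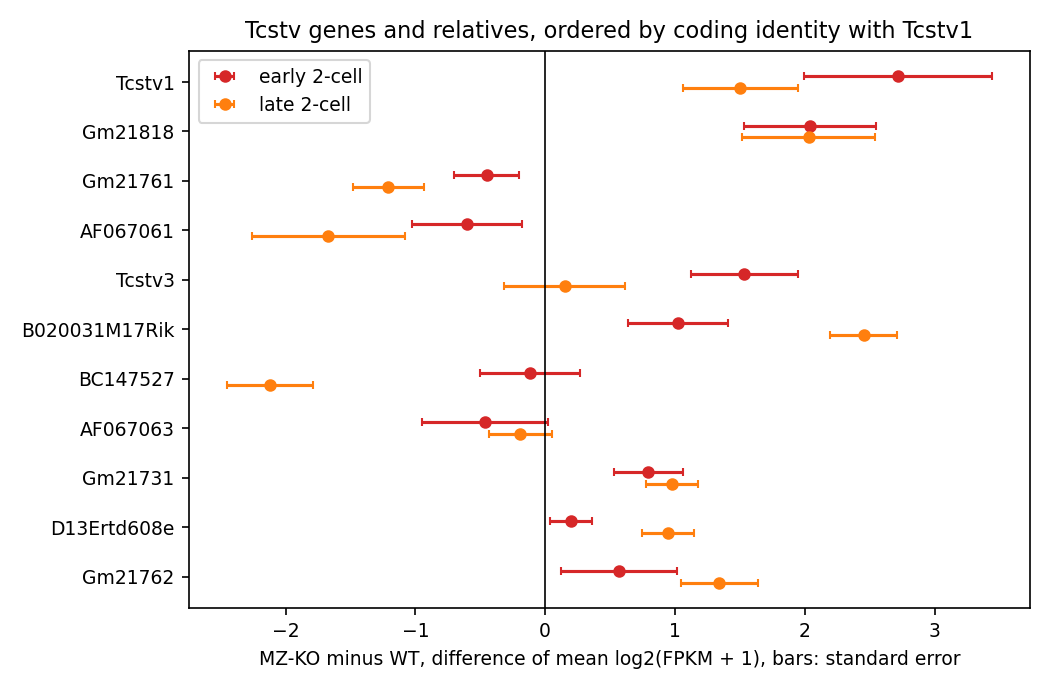
Difference of mean log2(FPKM + 1), MZ-KO minus WT, in early (red) and late (orange) 2-cell embryos for Tcstv1, Tcstv3 and 9 relatives, ordered from the top by identity of their coding sequence with Tcstv1; bars are the standard error of the difference with each group's own variance. Gm21818 (2.03) and B020031M17Rik (2.45) lie to the right of 0 in late embryos and BC147527 (-2.12) and AF067061 (-1.67) to the left, with Tcstv3 at 0.15.

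Upstream windows of 12 genes within 500 kb of the pair were searched, and 2 of them, those of AF067061 and Gm21761, hold TGATTCAAT, a core of the sequence that Dux is known to bind. The set searched held no window for Tcstv1 or Tcstv3, so theirs were not analysed here. AF067061 and Gm21761 both had lower means in MZ-KO late than in WT late embryos. So did BC147527 (log2 difference -2.12), which is not among the genes with a match. Whether these letters bear on the levels was not tested. The windows of AF067061 and Gm21761 are shown because they carry these letters, which are printed in capitals. The match starts 179 bases before the RefSeq gene start in both windows (RefSeq, GRCm38.p6, 250 bases each, 5′ to 3′).
AF067061 chr13:120262845-120263094, plus strand: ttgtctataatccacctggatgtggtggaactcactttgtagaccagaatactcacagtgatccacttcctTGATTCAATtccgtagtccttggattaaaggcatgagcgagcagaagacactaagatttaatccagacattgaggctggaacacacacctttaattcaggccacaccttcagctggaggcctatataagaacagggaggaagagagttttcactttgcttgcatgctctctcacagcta
Gm21761 chr13:119913469-119913718, minus strand: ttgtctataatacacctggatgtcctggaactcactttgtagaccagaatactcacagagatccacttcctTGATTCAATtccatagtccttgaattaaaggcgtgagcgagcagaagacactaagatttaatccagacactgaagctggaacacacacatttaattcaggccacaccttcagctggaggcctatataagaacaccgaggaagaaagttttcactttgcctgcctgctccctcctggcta
The 2 windows are 92.4% identical. TGATTCAAT, searched on both strands and chosen after the data were seen, occurs in 36 of 32851 upstream windows of this length (0.110%).

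The list of relatives holds 10 genes of the table on chromosome 13 beside the pair. It leaves out 2 relatives described above, B020031M17Rik and Gm21761, and the latter is in the list of Dux-induced genes. The counts that follow do not cover them. From WT early to WT late, 7 of them were tested, and 6 rose and none fell (limma; background 46.6% higher and 38.4% lower), with a median difference of 1.97 against 0.26 over all genes. D13Ertd608e, Gm21731 and Gm21762 averaged 0.109, 0.483 and 0.533 FPKM in WT early embryos and passed the filter through the late embryos. These could hardly fall, so the count and the median are not read as a result. AF067063 rose by 4.51 (limma adjusted p = 1.14e-07), from 2.54 ± 3.08 (SD, n = 8) to 62.4 ± 18.4 FPKM (SD, n = 6), and Gm21762 by 3.44 (limma adjusted p = 1.69e-09). Gm21818 had a difference of 0.40 (limma adjusted p = 0.333). From egg to early embryo none of 4 tested relatives passed the limma threshold (background 51.3%), though all 4 differences were positive and 2 had an unadjusted p below 0.05. No WT egg reached FPKM 1 for AF067063, AF067061 or BC147527, which entered through the embryos, so their sign is not read as a result. In KO eggs the 1 relative tested, Gm21818, was not called by limma (background 0.333%), and its unadjusted p was not below 0.05. The list had also named Gm6367, which the annotation puts on chromosome 5, and it was left out of these counts after its position was seen.

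The other Dux-induced genes gave the contrast by which the pair was picked. Of 42 tested between WT egg and early embryo, 32 rose and 1 fell (background 30.4% higher and 20.9% lower), with a median of 2.50 against 0.15 over all genes. Many of them were near 0 in eggs, such as Gm2022 at 0 and Zscan4f at 0.096 FPKM on average. Such genes passed the filter through the embryos alone and could only rise, so nothing is read from this count or median. Zscan4f, of a family active at telomeres, rose by 3.64 (limma adjusted p = 0.0029), and Zfp664, a zinc finger gene, fell by 1.18 on the log2 scale (limma adjusted p = 3.15e-05). From WT early to late, 20 of 45 rose and 6 fell (background 46.6% higher and 38.4% lower, so the share that rose was near the background), led upward by Gm4850 (7.30) and Tdpoz5 (5.80). In MZ-KO early embryos 34 of 38 were lower in sign and 4 higher, where 42.6% of all genes tested were lower in sign, with a median of -0.67 against 0.05 over all genes. None was called by limma (background 0.704% lower) and 5 had an unadjusted p below 0.05. In MZ-KO late embryos 36 of 40 were lower, 23 of them called (background 13.4%), and the called higher genes were Zfp664 and Cwc15, with a median over the list of -1.25. Those counts come from the comparison that chose the pair, so nothing is read from them. Duxf3, the Dux gene itself, was at 2.72 ± 1.60 FPKM (SD, n = 8) in WT early and 4.49 ± 3.36 (SD, n = 6) in MZ-KO early embryos, with overlap, and at 0.338 or less in every late embryo. Of 13 tested genes of Dux and its regulators, 4 rose and 4 fell from WT early to late (background 46.6% and 38.4%), Dppa4 rising by 4.50 (limma adjusted p = 4.34e-13) and Duxf3 falling, with a difference of -1.78 (limma adjusted p = 1.81e-06). Dppa4 averaged 0.751 FPKM in WT early embryos and Duxf3 0.0077 in WT late embryos. Each passed the filter through the other stage, so these directions are not read as a result. In MZ-KO late embryos 3 of 12 were called lower (Pias4, Trim28 and Nelfa; background 13.4%) and none higher.

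Of 22 genes of telomere maintenance, 12 were tested between WT early and late embryos, and 8 rose and 2 fell (background 46.6% higher and 38.4% lower). Rtel1, Terf2ip and Terf1 averaged 0.374, 0.789 and 0.828 FPKM in WT early embryos and could hardly fall. Blm, at 0.667 in WT late embryos, could hardly rise. The count is therefore not read as a result. Nhp2, a protein of the telomerase RNA particle, rose by 4.37 (limma adjusted p = 1.39e-12), and Acd, a shelterin protein, fell by 3.22 on the log2 scale (limma adjusted p = 4.59e-08). In MZ-KO late embryos none of 13 was called by limma (background 31.9%) and 3 had an unadjusted p below 0.05, and in MZ-KO early embryos 1 of 9 was called, Acd at 0.67 (background 3.28%).

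The genes whose levels followed Tcstv1 most closely over the 32 libraries, among 14154 searched, were Kcnk18 (r = 0.86), Gm20763 (0.84), Gm47913 (0.83), 4833420G17Rik (0.81) and Gm9752 (0.81). Kcnk18 encodes a potassium channel and lies on chromosome 19. The other 4 lie on chromosome 13, Gm20763, 4833420G17Rik and Gm9752 within 0.301 to 0.431 Mb and Gm47913 3.24 Mb from Tcstv1, where 4.53% of the genes searched are on that chromosome. Further down the order fewer were, 5 of the top 20 and 6 of the top 50, and the median r of the 24 genes within 1 Mb was -0.21 against -0.17 over all genes searched. Gm9752 lies inside 4833420G17Rik on the other strand, and unstranded reads cannot tell these apart. With group means taken out, over the 26 embryos, the top 5 were Gm20763 (0.79), Gm47913 (0.78), 4833420G17Rik (0.72), Vdac3 (0.70) and Ccdc122 (0.70). There 6 of the top 20 and 7 of the top 50 were on chromosome 13, and the median r within 1 Mb was 0.29 against 0.00 over all. These correlations share libraries and depth and are descriptions.

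Gm20763, a processed pseudogene, was at 8.49, 9.32, 0, 0, 0, 15.2, 10.1 and 7.61 FPKM in WT early embryos in library order. It was listed at 0 in all 6 WT late embryos, at 7.38 to 15.2 in MZ-KO early and at 0.039 to 3.00 in MZ-KO late embryos. Gm47913, a long noncoding RNA gene, was at 1.23, 1.66, 0, 0, 0, 0.971, 0.897 and 1.79 in WT early embryos. It too was listed at 0 in all WT late embryos. 4833420G17Rik was at 3.64, 4.72, 0.484, 0.615, 0.301, 3.04, 3.35 and 5.03 in WT early and at 0.352 to 0.944 in WT late embryos, against 0.540 to 2.98 in MZ-KO late embryos. Kcnk18 was listed at 0 in WT early libraries 3, 4 and 5 and was between 0.831 and 1.42 in the other 5. The 3 WT early embryos lowest in Tcstv1 were thus also the 3 lowest for each of these 4 genes, and no WT late embryo was above 0.944 FPKM for any of them. These genes were picked because they followed Tcstv1 most closely over these same libraries, so the likeness follows from the choice. In WT eggs Gm20763 was at 1.38 to 3.26 and Kcnk18 at 0.932 to 2.78.

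**Figure D4:**
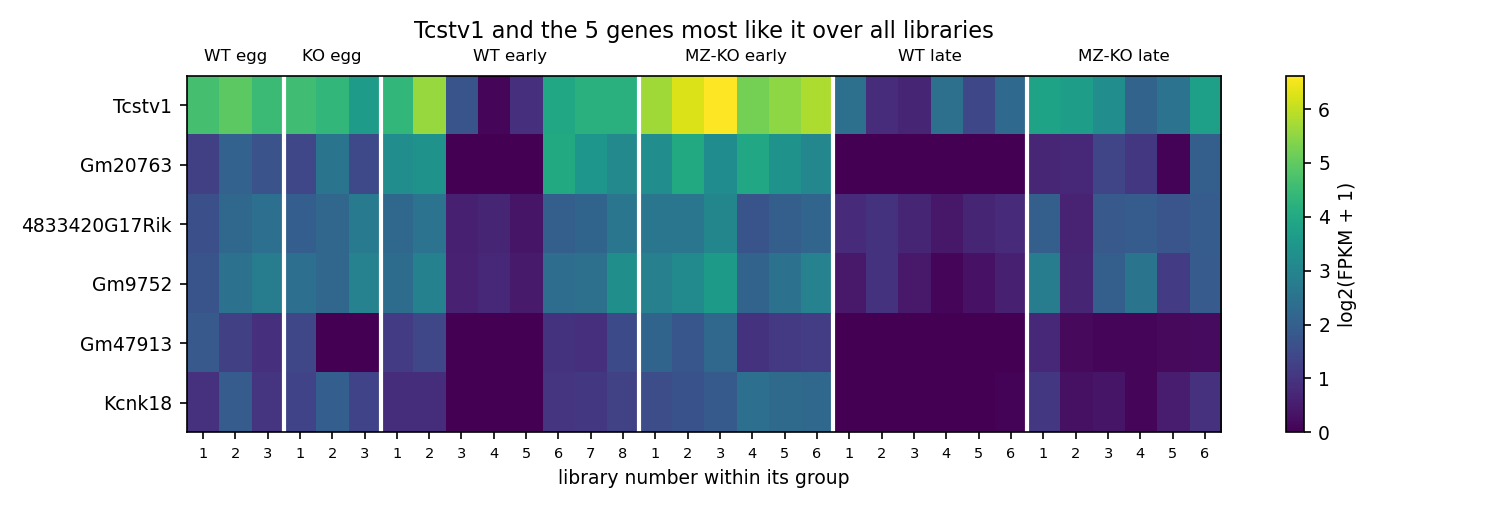
Level of Tcstv1 and of the 5 genes most like it, as log2(FPKM + 1) in colour, with 1 column per library and the groups separated by white lines. WT early libraries 3, 4 and 5 and the 6 WT late libraries are dark in the rows of Gm20763 and Gm47913, both listed at 0 there, and low in the other rows, where Tcstv1 is at most 4.45 FPKM.

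A second neighbour, Gm48265, was listed at 0 in all 6 WT late embryos and stood at 1.06 to 3.08 FPKM in the 6 MZ-KO late embryos. 3110070M22Rik, named like Gm48265 after its values were seen, was also at 0 in all 6 WT late embryos, but it was at 0 in 4 of 6 MZ-KO late embryos too and at 4.58 and 2.31 FPKM in the other two. Of the 44 annotated genes within 500 kb of the pair and in the table, the pair included, 25 reached FPKM 1 in 3 libraries. Of the 42 others, 18 were in the late genotype comparison, 6 called higher and 4 lower (background 18.5% and 13.4%), with a median difference of 0.28 against 0.08 over all genes. That comparison chose the pair, and relatives of the pair are among the genes called on both sides. Gm48265 and B020031M17Rik averaged 0 and 0.640 FPKM in WT late embryos, and Gm21761 0.794 in MZ-KO late embryos. These entered through the other genotype, so nothing is read from the counts or the median. Paip1, which binds the poly(A)-binding protein and lies in that window, was at 15.2 ± 1.31 FPKM (SD, n = 8) in WT early and 13.6 ± 1.93 (SD, n = 6) in MZ-KO early embryos. Its range in WT early embryos, 13.5 to 17.04, contained no low libraries. The labels give the same mixed background for all mice and no litter or strain for a single library. WT early libraries 3, 4 and 5 share their label with the other 5, and whether litter or strain has a part in their low levels was not tested.

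Tcstv3 followed other genes. Over all libraries its closest was Gm21818 (0.77), and Ndufa4 (0.69), a protein of the mitochondrial respiratory chain, Gm27553 (0.65) and Gm16973 (0.65) were also among the closest. With group means taken out the first was Btg1 (0.72), an antiproliferative factor, then Gm38271 (0.70), Cfap36 (0.70), Gm9923 (0.70) and the cytokine gene Il18 (0.69). The correlation of Tcstv3 with Tcstv1 itself was 0.23 over all libraries, with 4521 genes closer to Tcstv1, and 0.53 with group means taken out, with 110 closer.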

How the data were processed

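The deposited table holds FPKM values per gene and library. The submitters' processing notes name TopHat2, DESeq, DESeq2 and build mm10, with no role or version. Per the labels' protocols, cDNA from single eggs or embryos was made with a SMART-seq v4 kit and cut with Tn5, which does not mark strand. Low values showed that the authors counted whole reads over the gene span: in spans of at most 2000 bp, at least 99.2% of low FPKM values were whole reads within 0.1 read. The authors' deposited log2 fold changes were copied as they stand; their stage (late) and direction (WT over knockout) were inferred from agreement with the FPKM values. One group of 6 late columns has transposed letters in its header, and its mean matched the authors' late MZ-KO mean within 3.33e-06. The column names carry no replicate number, so libraries were numbered in column order.

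Values were taken as log2(FPKM + 1) and tested with limma 3.58.1 (trend, robust; statmod 1.5.0) in R 4.3.3, on the groups compared. Genes entered if the number of libraries reaching FPKM 1 was no less than the size of the smaller group. The method was tested on simulated data. Other steps used Python 3.11.15, numpy 2.4.6, pandas 2.3.3, scipy 1.17.1 and matplotlib 3.10.9. Of 54532 identifiers, 54409 were found in GENCODE release M21.

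The members and gene lists were chosen with earlier results of these data known. Genes named besides the pair were those within 500 kb, the 5 with the highest Pearson r to each gene, the ends of each list, Trp53 and Duxf3. Paip1, Gm48265, 3110070M22Rik and the relatives in the sequence comparison were singled out after their values were seen. One gene that this rule names is not reported here.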

Additional observations from a re-analysis of the deposited data

Results flagged for a closer look

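Among WT early embryos, library 2 stood apart from the other 7 at 47.2 FPKM of Tcstv1, with a gap to the next embryo of 0.577 of the whole range, above the limit of 0.526 for 8 values. Such a gap arises by chance in about 1 in 20 groups, if values follow a normal distribution. It was taken on the FPKM scale. On the log2(FPKM + 1) scale of the tests, library 2 was at 5.59, the next embryo at 4.39 and the lowest at 0.096. Tcstv3 was also highest in that embryo, at 8.83 FPKM.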

How the results depend on the processing

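Over 20 results, 274 alternatives were run, 133 of them for 12 results with a test, of which 117 kept direction and side of the threshold. For the 8 MZ-KO results without a test, 138 of 141 moved the value by less than 1 SD between replicates. No paired analysis was possible because the column names carry no replicate numbers, so the replicate block was not run. A filter of FPKM 5 gave no value for Tcstv1 from WT early to late, Tcstv3 in eggs or Tcstv1 in late MZ-KO embryos. Tcstv1 from WT early to late passed in a fit over all libraries (-1.45, adjusted p = 0.0245). Leaving out single embryos gave -1.88 to -1.10 (limma adjusted p from 0.0156 to 0.172). For the sum of both genes' reads, Tcstv3 turned to -0.93 from WT egg to early, -0.13 from early to late and -0.34 between KO and WT eggs (none called), Tcstv1 late MZ-KO minus WT came to 0.65, and late minus early MZ-KO came to -1.70 for either gene. The balance of the copies between WT egg and early embryo was 2.77 with a pseudocount of 0.1 (exact permutation test, adjusted p = 0.0545) and 1.86 to 2.39 without single libraries (adjusted p from 0.025 to 0.111). Between early and late it was 2.33 to 2.86 without single libraries (exact permutation test, adjusted p at most 0.0128). With the other pseudocount or median-ratio scaling it was 2.57 to 2.80 (exact permutation test, adjusted p at most 0.0260). Values near 2 reads, as for Tcstv1 in WT early library 4, cannot be told from 0 at this depth.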

Other observations

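In early MZ-KO embryos, some relatives of the pair were split by library. Gm21762 was at 4.16, 2.50, 3.27, 0.084, 0.192 and 0.174 FPKM in libraries 1 to 6, while Duxf3 was at 1.34, 2.83, 0.764, 7.67, 5.54 and 8.81. Libraries 1 to 3 were thus high in Gm21762 and low in Duxf3, and Tcstv3 was also highest in these libraries (16.9, 30.1 and 25.98 FPKM). Tcstv1, at 50.4, 76.0, 97.2, 36.6, 43.8 and 55.0 FPKM, did not follow the split fully, since library 1 was below library 6. The reason was not tested.

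Gm36079, a neighbour listed at 0 in all 6 eggs, had a mean of 19.9 ± 12.95 FPKM (SD, n = 8) over WT early embryos. Its mean over MZ-KO early embryos was 5.27 ± 8.39 (SD, n = 6), the opposite direction to the pair, with overlapping ranges.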
